A study of Mus musculus with 6 samples.

Results

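Among genes of the pathway that oxidises drugs and other foreign compounds, Cyp2b10 fell in the inguinal fat of arsenite-treated mice. Cyp2e1, Cyp4b1, Por, Ephx1 and Aox1 had higher group means that were not called on the authors' statistic. These 6 genes are the rows of the deposited table, which holds 13490 genes, whose symbols match a named set of this pathway. All 6 have a row. The set was chosen from the group means of the contrast between arsenite and water, so the means and what was computed from them are a description without a test. The RNA sequenced came from the inguinal white adipose tissue, a fat depot under the skin, of 6 wild-type C57BL/6J males aged 15 weeks. For 9 weeks, 3 mice drank distilled water (dH2O) and 3 drank water with sodium arsenite, an inorganic salt of trivalent arsenic, at 300 ppb. Males, a single depot and a single dose were studied, and the tissue was taken whole. The authors deposited 1 mean abundance per group and gene, on a count-like scale. They also gave a log2 ratio of treatment over control and a posterior probability per gene that both groups were equally expressed, headed PPEE, which is not a p-value. Genes with a PPEE of 0.05 or less are termed called. Only group means were at hand, so no mean carries an SD, and overlap of single mice between the groups cannot be given. About 20000000 mapped reads are stated for each sample in the labels, and the totals of the single libraries are unknown.

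Oxidation of foreign compounds begins at the membrane of the endoplasmic reticulum, where cytochrome P450 enzymes insert an oxygen atom into a lipophilic substrate. Each P450 there draws its electrons from NADPH through a shared flavoprotein, P450 oxidoreductase, the product of Por. Epoxides that arise in this way are opened to diols by microsomal epoxide hydrolase, the product of Ephx1, and aldehydes and nitrogen heterocycles are oxidised in the cytosol by the molybdenum enzyme aldehyde oxidase, the product of Aox1. The pathway is best known from liver, where the constitutive androstane receptor (CAR, gene Nr1i3) induces Cyp2b10 after exposure to drugs such as phenobarbital. Adipocytes also store many lipophilic compounds that these enzymes act on.

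Upstream sequence is shown for Cyp2b10, the member that was called, and for Cyp2e1 and Por, the P450 gene of highest level in the set and the gene of the reductase it depends on, to set the called gene beside members of opposite direction. Each run holds the 250 bases before the RefSeq start of the gene in GRCm38.p6, 5′ to 3′ on the strand of the gene. This start differs from the GENCODE start given further on. The Por run, and the Ephx1 run counted below, lie wholly inside the GENCODE spans of their genes. The other runs overlap those spans in part. Capitals mark every match, on either strand, to 6 motifs. TATAAA stands for the TATA box, CCAAT for the box of that name and GGGCGG for the GC box. GCGTG is the core bound by the aryl hydrocarbon receptor with its partner ARNT (the dioxin response core). AGGTCA is a half-site of the elements bound by CAR and related nuclear receptors, and TGACNNNGC is the core of the antioxidant response element. The Cyp2b10 run is chr7:25897408-25897657 on the plus strand, the Cyp2e1 run chr7:140763569-140763818 on the plus strand and the Por run chr5:135688895-135689144 on the plus strand.
Cyp2b10: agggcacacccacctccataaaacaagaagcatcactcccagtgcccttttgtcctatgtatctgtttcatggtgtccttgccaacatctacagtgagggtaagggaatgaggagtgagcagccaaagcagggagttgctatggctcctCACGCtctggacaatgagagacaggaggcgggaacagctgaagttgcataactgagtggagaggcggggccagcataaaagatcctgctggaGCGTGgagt
Cyp2e1: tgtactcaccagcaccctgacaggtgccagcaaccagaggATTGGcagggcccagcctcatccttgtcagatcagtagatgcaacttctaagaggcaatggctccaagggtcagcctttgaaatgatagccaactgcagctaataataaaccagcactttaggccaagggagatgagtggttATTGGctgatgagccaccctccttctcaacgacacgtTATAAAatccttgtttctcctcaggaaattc
Por: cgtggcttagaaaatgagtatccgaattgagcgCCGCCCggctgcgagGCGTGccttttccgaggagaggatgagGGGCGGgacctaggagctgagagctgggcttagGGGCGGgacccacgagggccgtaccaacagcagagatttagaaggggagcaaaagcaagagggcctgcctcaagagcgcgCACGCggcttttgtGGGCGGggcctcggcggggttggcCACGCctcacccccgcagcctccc

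In the Cyp2b10 run the 2 matches, both to the dioxin response core, lay 101 to 97 bases (minus strand) and 9 to 5 bases (plus strand) before the start. The Por run held 7 matches, 3 to the dioxin response core and 4 to the GC box, and 21 CpG dinucleotides against 4 in the Cyp2b10 run. Cyp2e1 had a TATA box 31 to 26 bases before its start and 2 matches to the CCAAT box. Over the corresponding runs of all 6 genes, the dioxin response core was found in 3 (Cyp2b10, Por and Aox1), the GC box in 3 (Cyp4b1, Por and Aox1), the CCAAT box in 3 (Cyp2e1, Ephx1 and Aox1) and the TATA box in 2 (Cyp2e1 and Ephx1), with no match overlapping another. The nuclear receptor half-site and the antioxidant core were found in 0 of the 6 runs. Sequence outside the runs was not searched, so this does not show that a gene lacks such sites. Of 32851 runs of this length over all RefSeq genes, 28.2% held the dioxin response core, 32.7% the GC box and 33.8% the CCAAT box. Of the same runs 12.4% held the TATA box, 14.0% the nuclear receptor half-site and 10.2% the antioxidant core. The dioxin response core was present in the gene that fell and in 2 genes with higher means. Whether it bears on the means of any of them was not tested.

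Cyp2b10, whose product hydroxylates drugs and steroids, averaged 57.6 over the water-treated and 22.6 over the arsenite-treated mice by the authors' means, 2.55-fold lower. The authors' deposited table lists it at a log2 ratio of -1.33 (PPEE 0.0126). The call is lost at a PPEE bound of 0.01, and a minimum average mean of 50 leaves the gene out, since its means average 40.1. Of the 6 genes 1 was called, against 99 of 13490 genes in the table (0.734%), of which 47 were lower (0.348%) and 52 higher (0.385%). Because the choice of the genes used this contrast, nothing is read from that count. By PPEE, Cyp2b10 ranked at place 68 of 13490 in the authors' deposited table. Its log2 ratio in the authors' deposited table was the 75th lowest, and of the 75 genes at or below it 4 were called and 53 had a PPEE above 0.9. Levels of this height were also common: 2770 genes had an average of both means within a factor of 2 of that of Cyp2b10, and 24 of them, Cyp2b10 included, had a ratio as low. In whole tissue, fewer cells of a type and less RNA per cell cannot be told apart, here or in the results that follow.

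Cyp2e1, encoding the ethanol-oxidising P450 that also acts on acetone and small solvents, had means of 6165 under water and 8187 under arsenite, 32.8% higher under arsenite. Its log2 ratio was 0.41 and its PPEE 0.996 in the authors' deposited table. Genes at this height mostly had lower means under arsenite: over the 238 genes with an average mean within a factor of 2 of that of Cyp2e1, the median log2 ratio was -0.24, and 19 of them, Cyp2e1 included, had a ratio as high. Cyp4b1, encoding a P450 of tissues outside the liver that hydroxylates fatty acids and activates some protoxins, had means of 416 and 514, listed in the authors' deposited table at a log2 ratio of 0.31 (PPEE 0.995). Neither gene was called.

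Por, the shared electron donor, had means of 2514 under water and 2976 under arsenite, 18.4% higher. Its log2 ratio of 0.24 was the smallest in size of the 6, except under quantile normalization, where Por was at 0.46 and Cyp4b1 at 0.37, and the authors' deposited table gives a PPEE of 0.998. Over the 837 genes of like level the median log2 ratio was -0.19, and 87, Por included, had a ratio as high as that of Por.

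Ephx1 had means of 239 and 341, 42.5% higher under arsenite, which the authors' deposited table lists as a log2 ratio of 0.51 (PPEE 0.971). It lay above the ratios of 93.2% of all genes and was the highest of the 6, except under quantile normalization, where Cyp2e1 was at 0.56 and Ephx1 at 0.54. Aox1 had means of 744 and 988, listed in the authors' deposited table at a log2 ratio of 0.41 (PPEE 0.963). The relative increase of Aox1, 32.8%, equalled that of Cyp2e1 to this precision. The 5 genes with higher means thus lay between log2 ratios of 0.24 and 0.51, a range that held 1674 genes, or 12.4% of the table, and 14 of those were called. Ratios above 0 were found for 45.5% of all genes, whose median ratio was -0.03.

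**Figure D1:**
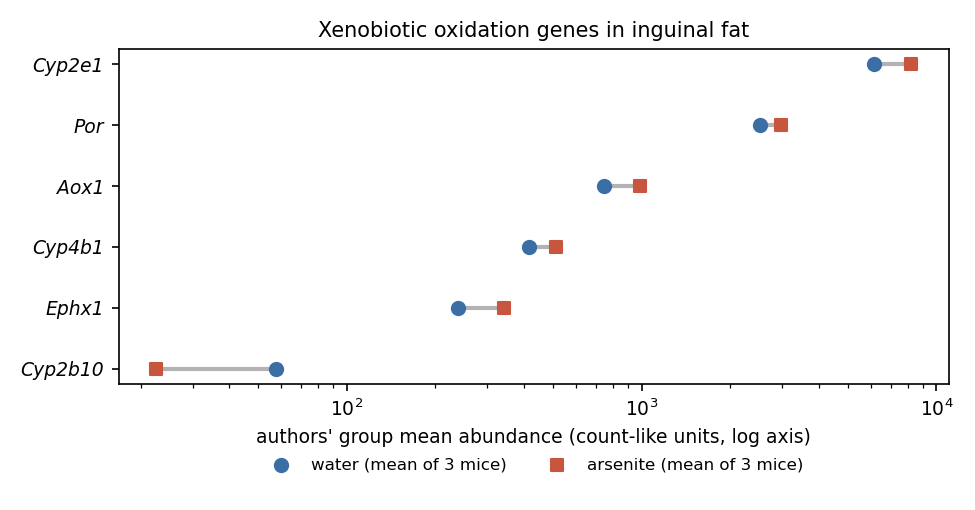
Authors' group mean abundance of the 6 xenobiotic oxidation genes on a log axis, with water as circles and arsenite as squares, each a mean of 3 mice without an error. Cyp2b10 is the lowest of the 6 and moves left, from 57.6 to 22.6, while the squares of the other 5 genes lie to the right of their circles.

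**Figure D2:**
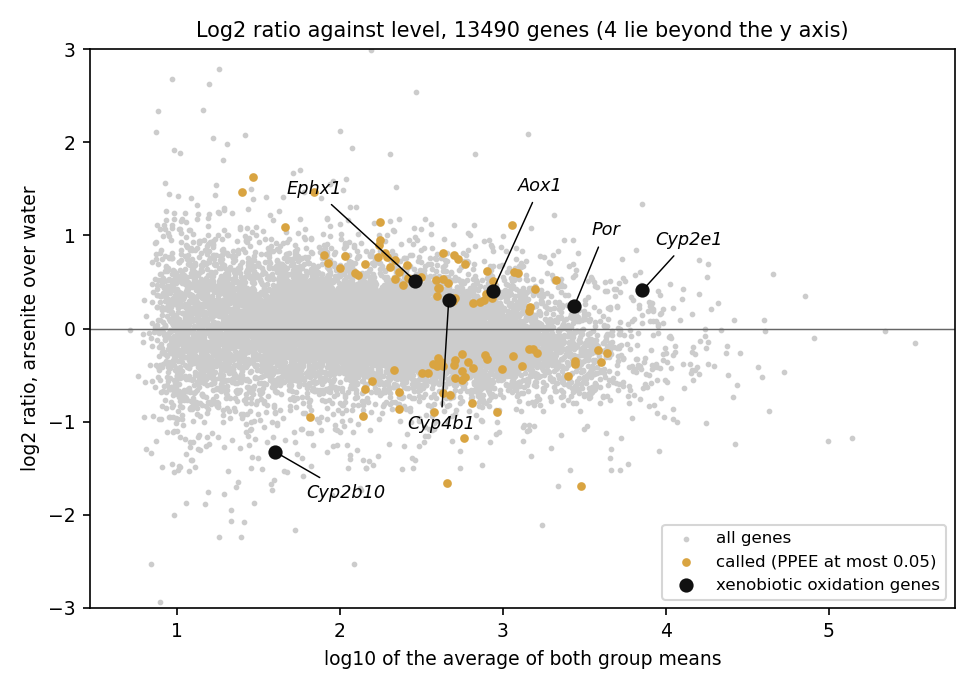
Log2 ratio of arsenite over water against the log10 of the average of both group means for 13490 genes, with the 99 called genes in yellow and the 6 xenobiotic oxidation genes in black. Cyp2b10 lies at -1.33 among genes of low level, and the other 5 lie between 0.24 and 0.51.

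Per kilobase of the deposited gene length, the level under water was 3505 for Cyp2e1, 1023 for Por, 222 for Cyp4b1, 170 for Aox1, 140 for Ephx1 and 30.8 for Cyp2b10. The order was the same under arsenite, where the levels per kilobase were 4654, 1211, 275, 226, 199 and 12.1. Cyp4b1, Aox1 and Ephx1 lie close to each other in this order, and whether they differ beyond the spread between mice cannot be given from group means. Cyp2e1 stood above 98.9% and Por above 95.6% of all genes in average level per kilobase, and Cyp2b10 above 24.8%. Per length, Cyp2e1 was 114 times as high as Cyp2b10 under water and 385 times under arsenite. The ratio of Cyp2e1 to Por, the donor it uses, was 3.43 per length under water and 3.84 under arsenite.

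The genes lie on 4 chromosomes of GRCm38. In the GENCODE M21 annotation the span of Cyp2b10, exons and introns together, is 25897620 to 25926624 on chromosome 7, plus strand, and that of Cyp2e1 is 140763739 to 140774987 on the same chromosome and strand. Cyp4b1 spans 115624725 to 115647723 on chromosome 4, minus strand, and Por 135670033 to 135735326 on chromosome 5, plus strand. Aox1 spans 58029931 to 58106413 (plus strand) and Ephx1 180976210 to 181020904 (minus strand), both on chromosome 1. Of the 12 nearest genes with a row in the table, 1 on each side of each gene, 0 were called at the same PPEE of 0.05, beside 0.734% of all genes. For Cyp2b10 these were Axl, a receptor tyrosine kinase gene 109 kb before it, with means of 457 and 587, and Cyp2f2, a P450 gene 1193 kb after it, with means of 252 and 196. Aox3, a paralogue that follows Aox1 at a distance of 6.72 kb, had means of 15.3 and 17.9. Cyp2b10 has close paralogues, and 8.70% of its 50-base transcript stretches occur in other genes, chiefly Cyp2b13 (6.94%). Cyp2b13 is not among the listed P450 genes of families 1 to 4 with a row. Reads within such stretches cannot be assigned to a single gene by sequence alone. The share was 8.26% for Cyp4b1, through 2 pseudogenes, 3.91% for Cyp2e1, 1.70% for Ephx1, 0.612% for Aox1 and 0% for Por.

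Across the P450 genes of families 1 to 4, those that mainly handle foreign compounds and fatty acids, Cyp2b10 had the lowest log2 ratio. It was the 1 gene called of the 17 with a row, beside 0.734% of all genes. Because the choice of Cyp2b10 used this contrast, nothing is read from its place or from that count. Of the 17, 7 had ratios below 0 and 10 above, with a median log2 ratio of 0.11 against -0.03 over all genes. Cyp4v3, a fatty acid hydroxylase, had means of 423 and 654, and its PPEE, 0.750 by the authors' deposited table, was the smallest after that of Cyp2b10. Cyp2u1, also a fatty acid hydroxylase, had means of 103 and 59.8, and was not called (PPEE 0.980 in the authors' deposited table). Cyp1a1 and Cyp1b1, targets of the aryl hydrocarbon receptor that were singled out after their values were seen, had means of 13.8 and 8.44 and of 159 and 171. Cyp2e1 made up 77.8% of the summed level per kilobase of the 17 genes under water and 80.8% under arsenite. The share of Cyp2b10 in that sum was 0.682% under water and 0.210% under arsenite, and its place in the order of levels went from 11 to 13. The summed level per kilobase was 27.9% higher under arsenite, and 10.6% higher over the 16 genes without Cyp2e1. Beside Por, this sum was 4.40 times the level of the reductase per kilobase under water and 4.76 times under arsenite.

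**Figure D3:**
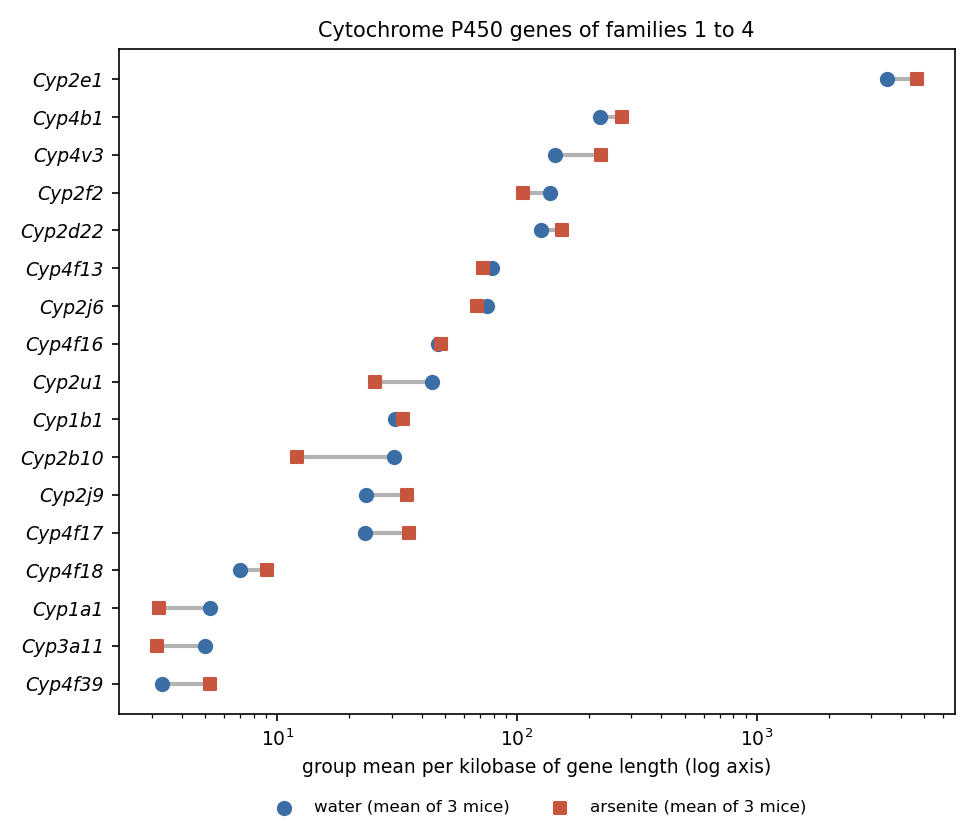
Group mean per kilobase of gene length, on a log axis, for the 17 P450 genes of families 1 to 4, ordered by level under water, with water as circles and arsenite as squares and no error. Cyp2e1 stands apart at 3505 and 4654, and Cyp2b10 has the longest line, from 30.8 to 12.1.

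A list headed sterol and steroid P450s, which also holds P450s of other substrates such as retinoic acid, had 7 genes with a row. Among them Cyp51, the lanosterol demethylase of cholesterol synthesis and another user of Por, also fell, from a mean of 795 to 353. Its log2 ratio was -1.17 and its PPEE 5.03e-06 in the authors' deposited table. The median log2 ratio of these 7 was -0.02, with 4 below 0 and 3 above. With the length trend removed it was 0.07, with 3 below 0 and 4 above. The same counts arose under upper-quartile scaling (median 0.04) and median centring (median 0.01). Cyp27a1, a mitochondrial sterol hydroxylase, had means of 359 and 367, Cyp20a1 114 and 113, and Cyp26b1, a retinoic acid hydroxylase, 20.7 and 27.7, none of them called. In the deposited gene ontology annotation, 98 genes carried the term iron ion binding, among them Cyp2b10, Cyp2e1 and Cyp4b1. Of the 98, 49 lay below 0 and 49 above, and the 2 called (2.04%, against 0.734% of all genes) were Cyp2b10 and Cyp51. The terms were taken because members carry them, response to metal ion through Cyp2b10 alone. The counts of iron ion binding, organelle membrane, cellular metabolic process and response to metal ion include Cyp2b10, chosen from this contrast. Nothing is therefore read from these shares. The term organelle membrane was carried by 429 genes, among them Cyp2b10, Cyp4b1, Ephx1 and Por, and 8 of them (1.86%) were called, 7 lower and 1 higher, against 0.734% of all genes, 0.348% lower and 0.385% higher. The other large terms carried by members had shares nearer to or below that over all genes, with 26 of 3106 genes called for intracellular membrane-bounded organelle (0.837%), 8 of 1052 for protein binding (0.760%) and 5 of 1298 for transition metal ion binding (0.385%), all 5 higher. For nucleotide binding 0 of 111 genes were called, for coenzyme binding 1 of 69, for cellular metabolic process 2 of 46 and for response to metal ion 2 of 136, 1 in each direction. Sqle, squalene epoxidase, a Por-dependent enzyme of sterol synthesis that was singled out after its value was seen, was among the 7 of the organelle membrane term, with means of 299 and 164 (PPEE 0.0488 in the authors' deposited table).

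Genes that supply electrons or heme to these enzymes held no call. With 0.734% of all genes called, lists this short can lack a call by their size alone, here and below. Of 13 electron partners and heme-degrading enzymes with a row, 8 had ratios below 0 and 5 above (median log2 ratio -0.05). With the length trend removed 5 lay below 0 and 8 above (median 0.02), and under upper-quartile scaling 6 and 7 (median 0.006). Por had the highest ratio of the 13 except with the length trend removed, where Cyb5a was highest at 0.32. Cyb5a, the microsomal cytochrome b5 that assists some P450s, had means of 2663 and 2817. Cyb5b, its counterpart on the outer mitochondrial membrane, had means of 4646 and 3182. Hmox2, a heme oxygenase that also receives electrons from Por, had means of 631 and 439 and the smallest PPEE of the list, 0.0788 in the authors' deposited table. Of 8 heme synthesis genes, 6 lay below 0 (median log2 ratio -0.12). Alas1, the rate-limiting enzyme of that pathway, had means of 2015 and 1796, Fech, which inserts the iron, 838 and 792, Urod 568 and 459 and Uros 187 and 144. The 8 genes had PPEE values between 0.987 and 0.999 in the authors' deposited table.

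Beside Ephx1 and Aox1, related hydrolases and molybdenum enzymes were not called either, where 0.734% of all genes were. Ephx2, the soluble epoxide hydrolase that acts on fatty acid epoxides, had means of 4541 and 4369, against 239 and 341 for Ephx1. Lta4h, leukotriene A4 hydrolase, had 257 and 349. Mest, an imprinted gene whose product has a hydrolase fold, had means of 539 and 2304, or 2.09 as a log2 ratio, and the authors' deposited table gives it a PPEE of 0.968. Of the 5 genes of this list with a row, 4 lay above 0 (median log2 ratio 0.47). Of 11 genes of molybdenum enzymes and of the cofactor they share, 5 lay below 0 and 6 above (median log2 ratio 0.02), and Aox1 had the highest ratio. Xdh, xanthine dehydrogenase, had means of 1874 and 1912 and Marc2, an amidoxime reductase, 1433 and 1365. The cofactor synthesis genes Mocs2 and Gphn had 2076 and 1749, and 339 and 403.

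Receptors that induce these genes in other tissues were not called, where 0.734% of all genes were. Nr1i3, encoding CAR, had means of 15.6 under water and 8.33 under arsenite, which the authors' deposited table lists as a log2 ratio of -0.87 (PPEE 0.997). Its heterodimer partner Rxra had means of 1639 and 1706. Ahr, the aryl hydrocarbon receptor, had 83.3 and 104, and its partner Arnt 557 and 575. Ppara, the fatty acid receptor that induces several P450 genes in liver, had 799 and 476, and its coactivator gene Ppargc1a 1035 and 610. Nfe2l2, encoding NRF2, had 665 and 756. Cebpa, Pparg and Nr3c1, the adipocyte and glucocorticoid regulators of highest level in the list, had 7394 and 8955, 2332 and 2194, and 1779 and 1787. Of the 27 genes of this list with a row, 15 lay below 0 and 12 above, and the median log2 ratio was -0.05. Under quantile normalization 12 lay below 0 and 15 above (median 0.02), and under upper-quartile scaling 13 and 14 (median 0.01).

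Other oxidising, hydrolysing and conjugating enzymes held no call, beside 0.734% of all genes. Of 32 other oxidoreductases 18 lay below 0 and 14 above (median log2 ratio -0.05). With the length trend removed 16 lay on each side (median 0.01), as they did under upper-quartile scaling (median 0.01) and median centring (median -0.02). The aldehyde dehydrogenase genes Aldh2, Aldh1a1 and Aldh1a3 had means of 4621 and 5448, 1026 and 1630, and 38.4 and 62.1. Hsd11b1, which regenerates active glucocorticoid, had 3112 and 2098, and Akr1a1, an aldehyde reductase, 2870 and 2816. Of 8 carboxylesterase and paraoxonase genes 2 lay below 0 (median log2 ratio 0.16), Pon1 at 133 and 74.8 and Pon3 at 880 and 715, while Ces1d, a carboxylesterase with lipase activity in adipocytes, had 8808 and 9916, Bche 1342 and 1436 and Ces1f 1161 and 1391. Of 34 conjugating enzymes 17 lay below 0 and 17 above (median log2 ratio 0.00), but with the length trend removed 10 lay below 0 and 24 above (median 0.15). Under upper-quartile scaling and under quantile normalization 14 lay below 0 and 20 above. Mgst1 and Gstz1, glutathione transferases of high level, had 7073 and 6240, and 5235 and 5215. The highest ratios in that list were those of Ugt1a6b, a glucuronosyltransferase, at 198 and 343, and Gstt3, a glutathione transferase, at 61.1 and 106. The members of the Ugt1a cluster share exons, so Ugt1a6b is uncertain as a single gene. Over all 12 pathway lists 190 genes had a row, 95 below 0 and 95 above, and 2 of the 190 were called (1.05%, against 0.734% of all genes), Cyp2b10 and Cyp51. Without the 6 chosen genes 1 of 184 was called (0.543%).

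**Figure D4:**
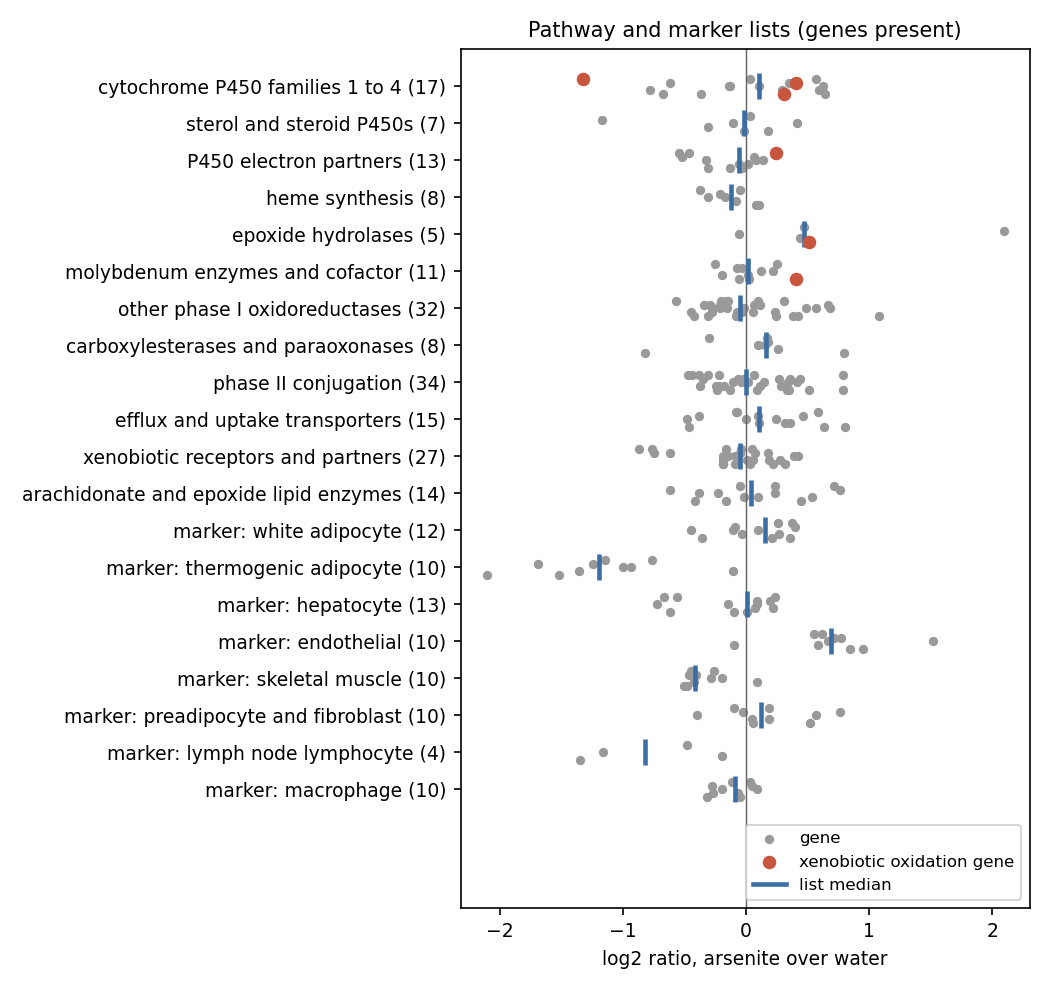
Log2 ratio of arsenite over water for the genes of each pathway and marker list with 4 or more genes in the table, the number in brackets. Points are genes, red points the 6 xenobiotic oxidation genes and blue bars the list medians; Cyp2b10 is the lowest point of the P450 list, and the thermogenic markers lie below 0 with a median of -1.19.

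Markers of several cell types in the depot also had unequal group means, and their part in the values of these 6 genes was not tested. All 12 white adipocyte markers had a row, 7 above 0 and 5 below (median log2 ratio 0.15), with 2 below 0 and a median of 0.32 under quantile normalization and a median of 0.29 with the length trend removed. Their summed means were 436191 under water and 441395 under arsenite, with Fabp4 at 223241 and 218556 and Lpl at 84667 and 78803. Of 10 thermogenic adipocyte markers all lay below 0, at log2 ratios from -2.10 to -0.10 (median -1.19), with a summed level of 56988 and 23257, 59.2% lower. Their median was -0.99 under quantile normalization and -1.05 with the length trend removed. In that list Ucp1 had 37406 and 15854 and Cidea 6787 and 2372. The 10 endothelial markers, 9 above 0, summed to 4031 and 6600, with Ptprb at 930 and 1427 and Pecam1 at 644 and 1025, and the 10 skeletal muscle markers, 9 below 0, to 235843 and 179113, with Myh4 at 61540 and 44653 and Tnnt3 at 41966 and 31625. The 10 preadipocyte and fibroblast markers, 7 above 0, summed to 19119 and 21488, with Col3a1 at 7841 and 8937 and Dcn at 5719 and 5910. The 10 macrophage markers, 7 below 0 but 4 with the length trend removed, summed to 5968 and 5279, with Lyz2 at 2166 and 1798 and Mrc1 at 843 and 696. Of the hepatocyte markers Alb had means of 656 and 594, and the 13 hepatocyte markers with a row, 6 below 0 but 7 under quantile normalization, summed to 9404 and 9786, of which Hp, which adipocytes also express, made up 8495 and 8959. Of 10 lymphocyte markers 4 had a row, all below 0, with sums of 307 and 246. Ptprc, which macrophages also express, made up 244 and 213 of these sums, and Cd8a had 24.4 and 17.3. Of the 10 epithelial markers Krt10 alone had a row, at 38.1 and 27.6. No marker was called, beside 0.734% of all genes, and no marker with a row was listed at 0 in either group.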

How the data were processed

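The treatment label of each sample set its group. Per the labels' protocols, reads were aligned to GRCm38. Bowtie2, HISAT and RSEM are listed, per the submitters' processing notes, with no version or role. How libraries were scaled and genes filtered is not given in the sources used here. The deposited means of all genes summed to 8608581 for water and 7716846 for arsenite. The deposited signal is 1 value per group and gene, the authors' mean abundance over the mice, on a count-like scale. Per the file headers they also deposited a log2 ratio, which equals that of the means after 0.574 is added to each, to within 3.62e-08. PPEE, a value from 0 to 1 deposited by the authors, carries EBSeq's name for the posterior probability that a gene is equally expressed. The control column was taken as water and the treatment column as arsenite.

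The members and lists were chosen with earlier results of these data known. Named genes were the 6 members, fixed receptors and paralogues, and in each list the called genes, the 3 of highest mean and the 2 of largest absolute log2 ratio at an average mean of at least 20 (the 2 of highest mean for marker lists); other genes are marked as singled out or are the nearest genes by position. A gene that this rule names is not reported here. Likeness to other genes over 2 group means was not computed. Symbols were matched through gene identifiers (13463 of 13490 in RefSeq GRCm38.p6), which restored 22 symbols turned into dates. Shared sequence counts 50-base stretches of GENCODE M21 transcripts, on either strand. Alternatives were upper-quartile scaling, quantile normalization, median centring, added constants of 0.1 and 5, removal of the trend on gene length (lowess, span 0.3), a minimum average mean of 50, PPEE bounds of 0.01 and 0.1 and an absolute log2 ratio of at least 1. The scaling steps were tested on simulated data. The software was matplotlib 3.10.9, statsmodels 0.14.6, scipy 1.17.1, pandas 2.3.3 and numpy 2.4.6 under Python 3.11.15.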

Additional observations from a re-analysis of the deposited data

How the results depend on the processing

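Under the 6 alternatives of scaling, added constant and length trend, the log2 ratio of Cyp2b10 ranged from -1.35 to -1.18 and stayed below 0, and those of the other 5 genes stayed above 0. Changes of 0.1 or more on the log2 scale were 3. Cyp2b10 was at -1.18 with a constant of 5, and under quantile normalization Cyp2e1 was at 0.56 and Por at 0.46. With a PPEE bound of 0.01, 0 of the 6 genes were called, and with 0.1 it was 1. A minimum average mean of 50, applied to the 6 genes after their values were seen, kept 5 of them without Cyp2b10 and so left 0 called. The count of called genes was 63 (31 lower, 32 higher) at a bound of 0.01. At the PPEE bound of 0.05 with an absolute log2 ratio of at least 1, the count was 11 (5 lower, 6 higher), Cyp2b10 included. Both counts are lower than that of the main setting by construction. For the 190 pathway genes, the number below 0 lay between 80 (upper-quartile scaling) and 95 over the 6 alternatives that keep all 190, and was 79 of the 155 with an average mean of at least 50. Of 292 further values for single lists, 22 moved, by 0.1 or more for a median or over 1.5 times for a count. The median of all genes lay between -0.03 and 0.03. No paired analysis was possible because the table holds group means and the replicate numbers of the groups differ; leaving out each replicate could not be run for the same reason. Depth per library is unknown, so the precision of low means, such as those of Cyp2b10 and Nr1i3, cannot be given.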

Other observations

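Transporters and lipid mediator enzymes that handle products of these pathways were also measured. Of 15 efflux and uptake transporter genes with a row, 5 lay below 0 and 10 above (median log2 ratio 0.10). At a PPEE of 0.05, 0 of them were called, beside 0.734% of all genes. Abcc3, an exporter of organic anions and glucuronides, had authors' means of 34.1 under water and 60.0 under arsenite, and Abcb1a, a P-glycoprotein gene, 95.4 and 148. Slc22a3, an organic cation transporter, had 551 and 760, Slc22a5, a carnitine transporter, 555 and 404, and Slco2b1, an organic anion transporter, 354 and 454.

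Of 14 genes of arachidonate metabolism with a row, 7 lay below 0 and 7 above (median log2 ratio 0.04), with 0 called, beside 0.734% of all genes. Ptges, an inducible prostaglandin E synthase, had means of 1426 and 933 and Ptges3 1213 and 1035. Hpgd, which degrades prostaglandins, had 309 and 525, and Pla2g4a, the phospholipase that releases arachidonate, 26.0 and 43.0. The authors' deposited table gives Ptges a PPEE of 0.998 and Hpgd 0.991.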
